A study of Mus musculus with 6 samples.

Results

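The collagen gene family was examined in isolated adipocytes, and its members did not all move one way. Of 37 collagen genes, 8 were higher and 1 was lower in libraries labelled L1L2-AKO. Of all 15674 genes tested 9.28% were higher and 7.18% lower. Only 3 of the 9 collagen calls, *Col4a5*, *Col12a1* and *Col16a1*, held whichever library was left out. The non-fibrillar genes *Col4a5* and *Col12a1* had the largest rises, 15.8-fold and 9.69-fold. Of the 10 collagen genes with a mean of at least 1000 CPM in L1L2-FF 1 passed the test, where 16.5% of all genes tested did. The members were taken as the rows whose symbol is that of a collagen alpha chain and whose count was 10 or more in at least 3 of the 6 libraries. By symbol alone 44 of the 37384 rows were collagen genes, and 7 of these did not reach the count rule. The rule was met through 3 libraries by *Col4a3* (counts of 14, 8 and 17 in L1L2-FF and 19, 9 and 0 in L1L2-AKO), and it was missed with 2 libraries by *Col10a1* (8, 8 and 18, and 14, 4 and 4) and *Col4a4* (4, 12 and 8, and 14, 7 and 8). *Col2a1*, *Col6a4*, *Col9a1*, *Col19a1* and *Col22a1* also fell short.

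Poly(A) RNA was sequenced from adipocytes of inguinal subcutaneous white adipose tissue (scWAT) of male mice at postnatal day 7 (P7), in 3 libraries from L1L2-FF and 3 from L1L2-AKO mice. L1L2-FF mice carried floxed alleles of both *Lats1* and *Lats2* and no Cre, and L1L2-AKO mice carried the same floxed alleles and Cre recombinase driven by the *Adipoq* promoter, which is active in adipocytes. LATS1 and LATS2 are the kinases of the Hippo pathway that restrain the transcriptional coactivators YAP and TAZ. Each library came from the pooled tissue of 4 mice. The adipocytes were separated by collagenase digestion and flotation, and other cells that float along or cling to fat cells also give RNA. The comparison asks which collagen genes differed in adipocytes of mice made to lack *Lats1* and *Lats2*.

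As a check of the labels, *Lats1* was at 76.1, 94.3 and 78.4 CPM in the 3 L1L2-FF libraries and at 38.9, 41.2 and 40.5 CPM in the 3 libraries labelled L1L2-AKO. CPM express counts relative to the library total, after TMM scaling between libraries. *Lats1* fell by 1.04 in log2 (standard error, SE, 0.118, adjusted p = 0.00131). *Lats2* went against the label, at 75.0, 85.7 and 68.6 CPM in L1L2-FF and 96.2, 126 and 135 CPM in libraries labelled L1L2-AKO (log2 fold change 0.64, SE 0.156, adjusted p = 0.0278). The paper reported lower mRNA of both genes by quantitative PCR in isolated P7 scWAT adipocytes of L1L2-AKO mice. A count per gene does not say which exons were read. Directions below are therefore those of the libraries labelled L1L2-AKO against L1L2-FF. Total counts per library lay between 30548473 and 32107917, and replicates of a genotype differed by more than sampling noise.

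Collagens are secreted or membrane proteins in which chains wind into a helix of repeated glycine-containing triplets, and in fat they surround each adipocyte and its vessels. Fibrillar collagens form the cables of the interstitial matrix. Network collagens form sheets, and those of type IV make the scaffold of the basement membrane that wraps each fat cell. FACIT collagens (fibril-associated collagens with interrupted helices) sit on the surface of fibrils, the type VI chains form beaded filaments near the cell, and transmembrane collagens span the plasma membrane. The members comprised 10 fibrillar, 7 network, 6 FACIT, 5 beaded and 4 transmembrane genes, and 5 more (*Col7a1*, *Col15a1*, *Col18a1*, *Col26a1* and *Col28a1*) that lie outside those types.

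The 37 members passed the filter on low counts, and 9 of them (24.3%) passed an adjusted p of 0.05, against 16.5% of the 15674 genes tested. The 8 higher members were 21.6% of the family, against 9.28% of genes tested, and the 1 lower member was 2.70%, against 7.18%. The 3 values of each genotype did not overlap for 15 members (40.5%), 12 higher and 3 lower, against 36.4% of genes tested, of which 18% were higher and 18.4% lower. The median log2 fold change was 0.20 over the members and -0.02 over the genes tested, and 20 members had a positive and 17 a negative value. The share of higher calls in the family was above that of all genes, and the share of lower calls was below it. Members without overlap were likewise more often higher than lower, while genes tested without overlap split about evenly. None of these differences was tested. *Col25a1* and *Col4a6* met the count rule through their libraries labelled L1L2-AKO, so their calls lend no support to the share of higher members. Of the 31 members with 10 counts in the 3 libraries of each genotype 6 were higher and 1 was lower. Because these were bulk libraries, fewer cells of a type and less RNA per cell cannot be told apart.

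**Figure D1:**
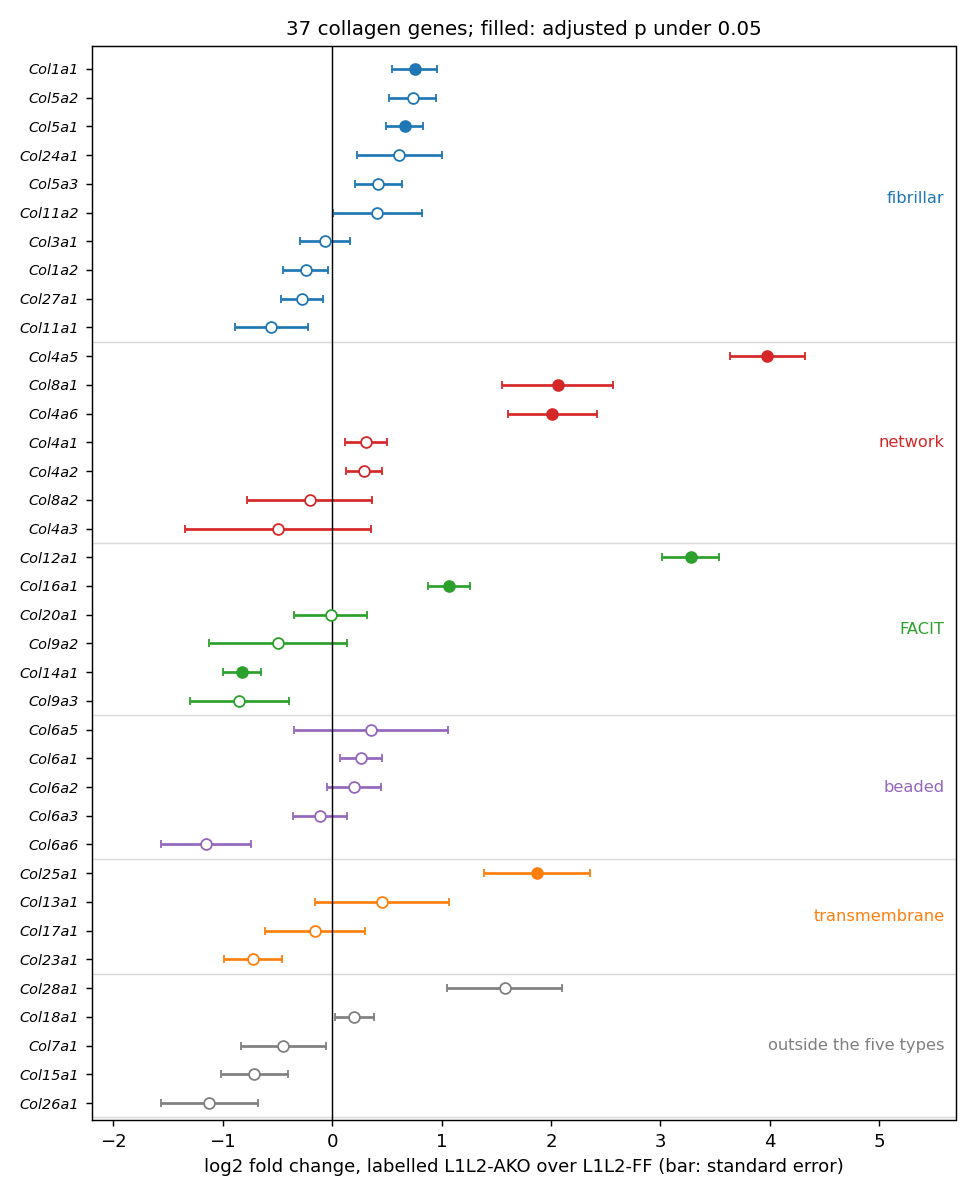
Log2 fold change of each of the 37 collagen genes in libraries labelled L1L2-AKO over L1L2-FF, by type, with the standard error as a bar and a filled point for an adjusted p under 0.05. *Col4a5* at 3.98 and *Col12a1* at 3.28 stand far to the right, *Col14a1* at -0.82 is the filled point on the left, and no beaded member is filled.

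Network collagens held the largest change. Of the 7 members 3 rose, *Col4a5*, *Col4a6* and *Col8a1*, none fell and 4 did not pass, with a median log2 fold change of 0.31. Of all genes tested 16.5% were called, and no type was tested against this share. *Col4a5*, which encodes a type IV chain of specialised basement membranes such as that of the kidney glomerulus, had 511, 639 and 408 counts in L1L2-FF and 4841, 8619 and 10227 counts in libraries labelled L1L2-AKO. In CPM these were 16.3, 19.8 and 13.2 against 146, 273 and 357. The lowest library labelled L1L2-AKO, replicate 1, was far above the highest L1L2-FF library. *Col4a5* rose by 3.98 in log2 (SE 0.341, adjusted p = 0.000479), the 68th highest value among the 15674 genes, and by its level per kilobase of transcript it went from rank 19 to rank 15 among the members.

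*Col4a6*, the partner chain of *Col4a5* in smooth muscle and epithelial basement membranes, had few reads. Its counts were 11, 8 and 10 in L1L2-FF and 34, 56 and 27 in libraries labelled L1L2-AKO, or 0.351, 0.247 and 0.322 CPM against 1.03, 1.78 and 0.943 CPM. The groups did not overlap, and *Col4a6* rose by 2.01 in log2 (SE 0.409, adjusted p = 0.0140). Without L1L2-FF replicate 1 or without L1L2-AKO replicate 2 its adjusted p was 0.0552 and 0.0688. In the libraries labelled L1L2-AKO the level of *Col4a5* was 39.6 CPM per kb and that of *Col4a6* 0.188 CPM per kb, so that the partners moved the same way from very different levels.

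The partners lie head to head on chromosome X of mm10. *Col4a6* runs on the minus strand from 141165403 to 141474076 and *Col4a5* on the plus strand from 141475385 to 141689234 (GENCODE M21), with 1309 bases between their starts. The stretches just before each start are shown because both genes of this divergent pair rose, and that of *Col3a1*, an abundant member that did not pass the test, is shown for comparison. They are read 5′ to 3′ on the strand of their gene from RefSeq windows of GRCm38.p6 (250 bases before to 50 after a start) and shortened to the bases before the annotated start, that of *Col4a6* with its first transcribed base. Capitals mark CATTCC or its reverse complement GGAATG, the letters bound by TEAD factors, the DNA-binding partners of YAP and TAZ.
Col4a5 at chrX:141475169-141475384, plus strand: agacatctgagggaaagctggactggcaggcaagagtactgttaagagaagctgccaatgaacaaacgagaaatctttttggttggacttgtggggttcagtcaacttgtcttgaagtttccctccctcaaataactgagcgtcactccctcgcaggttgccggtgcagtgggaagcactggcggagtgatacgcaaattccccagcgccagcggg
Col4a6 at chrX:141474076-141474326, minus strand: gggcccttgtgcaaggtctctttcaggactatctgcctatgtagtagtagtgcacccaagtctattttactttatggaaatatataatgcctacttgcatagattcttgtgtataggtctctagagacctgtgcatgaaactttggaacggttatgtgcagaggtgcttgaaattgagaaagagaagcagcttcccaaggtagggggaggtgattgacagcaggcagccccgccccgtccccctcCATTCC
Col3a1 at chr1:45311288-45311537, plus strand: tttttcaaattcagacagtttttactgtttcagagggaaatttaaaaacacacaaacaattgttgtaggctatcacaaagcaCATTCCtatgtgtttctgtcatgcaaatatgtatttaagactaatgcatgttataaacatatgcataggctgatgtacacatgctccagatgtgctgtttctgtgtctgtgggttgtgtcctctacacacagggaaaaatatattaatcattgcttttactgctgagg
The *Col4a6* stretch ends in a match that reaches the start itself, the *Col3a1* stretch holds 1 match, and the *Col4a5* stretch holds none. RefSeq windows were at hand for 30 of the 37 members, 6 of the 9 called ones among them. The called members *Col1a1*, *Col12a1* and *Col14a1* had no window and were not searched. Either strand of CATTCC occurred in 5 of their 32 windows (15.6%), against 14.7% of all 32851 windows. The 5 genes were *Col3a1*, *Col4a6*, *Col6a2*, *Col18a1* and *Col20a1*, of which *Col4a6* alone was called. Searched in the same way on both strands, the AP-1 letters TGANTCA occurred in 3.1% of the members' windows against 7.8% of all, and TATAAA in 12.5% against 13.6%. A match in these letters is a description and not a bound site.

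*Col8a1*, a short-chain network collagen known from vessel walls and the corneal basement membrane, was at 1.85, 6.03 and 1.77 CPM in L1L2-FF and at 8.15, 17.9 and 14.4 CPM in libraries labelled L1L2-AKO. L1L2-FF replicate 2 stood above its group, yet the groups did not overlap. *Col8a1* rose by 2.06 in log2 (SE 0.508, adjusted p = 0.0294). Leaving out L1L2-FF replicates 1 and 3 in turn gave an adjusted p of 0.103 and 0.0730, leaving out L1L2-AKO replicates 2 and 3 gave 0.103 and 0.0855, and leaving out L1L2-FF replicate 2 gave 0.00225.

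The main type IV chains of every basement membrane, *Col4a1* and *Col4a2*, moved little from very high levels. *Col4a1* was at 5170, 4775 and 4356 CPM in L1L2-FF and at 5668, 5737 and 6296 CPM in libraries labelled L1L2-AKO. *Col4a2* was at 2583, 2208 and 2253 CPM in L1L2-FF and at 2807, 2791 and 3018 CPM in libraries labelled L1L2-AKO. For both genes every library labelled L1L2-AKO was above every L1L2-FF library, but the log2 fold changes of 0.31 (SE 0.190, adjusted p = 0.325) and 0.29 (SE 0.168, adjusted p = 0.290) did not pass the test. Their starts on chromosome 8 overlap, at 11312826 on the minus strand for *Col4a1* and 11312805 on the plus strand for *Col4a2*. *Col8a2* and *Col4a3* had means under 1 CPM in both genotypes and log2 fold changes of -0.21 and -0.49, neither past the test.

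FACIT collagens split in direction. Of the 6 members 2 rose, *Col12a1* and *Col16a1*, 1 fell, *Col14a1*, and 3 did not pass, with a median log2 fold change of -0.25. Of all genes tested 9.28% rose and 7.18% fell. *Col12a1*, whose product bridges type I fibrils in tendon, muscle and healing tissue, had 2820, 2565 and 3120 counts in L1L2-FF and 19760, 26402 and 33852 counts in libraries labelled L1L2-AKO. In CPM these were 90.01, 79.3 and 100.6 against 596, 838 and 1182. Replicate 1 was again the lowest library labelled L1L2-AKO, and it was well above every L1L2-FF library. *Col12a1* rose by 3.28 in log2 (SE 0.265, adjusted p = 0.000404), the 112th highest value among the genes tested, and went from rank 15 to rank 13 among the members by level per kilobase.

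*Col14a1*, the structural relative of *Col12a1* that binds fibrils and limits their growth, moved the other way. It was at 97.5, 125 and 78.9 CPM in L1L2-FF and at 62.3, 56.8 and 50.8 CPM in libraries labelled L1L2-AKO. The groups did not overlap, and *Col14a1* fell by 0.82 in log2 (SE 0.175, adjusted p = 0.0164). Its adjusted p was 0.0584 when L1L2-FF replicate 1 was left out, and 0.0680 and 0.0720 when L1L2-AKO replicates 2 and 3 were. In L1L2-FF the mean level was 7.82 CPM per kb for *Col12a1* and 15.5 CPM per kb for *Col14a1*, and in libraries labelled L1L2-AKO they were 75.7 and 8.77 CPM per kb.

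*Col16a1*, a FACIT chain found with both fibrils and basement membranes, was at 36.6, 43.2 and 27.1 CPM in L1L2-FF and at 60.7, 79.8 and 83.9 CPM in libraries labelled L1L2-AKO. No value overlapped, and *Col16a1* rose by 1.07 in log2 (SE 0.195, adjusted p = 0.00893). With each library left out in turn *Col16a1*, *Col12a1* and *Col4a5* were the members called in every fit, with log2 fold changes of 0.90 to 1.23, 3.00 to 3.49 and 3.68 to 4.26. The remaining FACIT members were low. *Col20a1* was at 2.62 CPM in L1L2-FF with a log2 fold change of -0.01, and the cartilage chains *Col9a2* and *Col9a3*, both under 1 CPM, had -0.49 and -0.85 and did not pass, although *Col9a3* had no overlap.

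**Figure D2:**
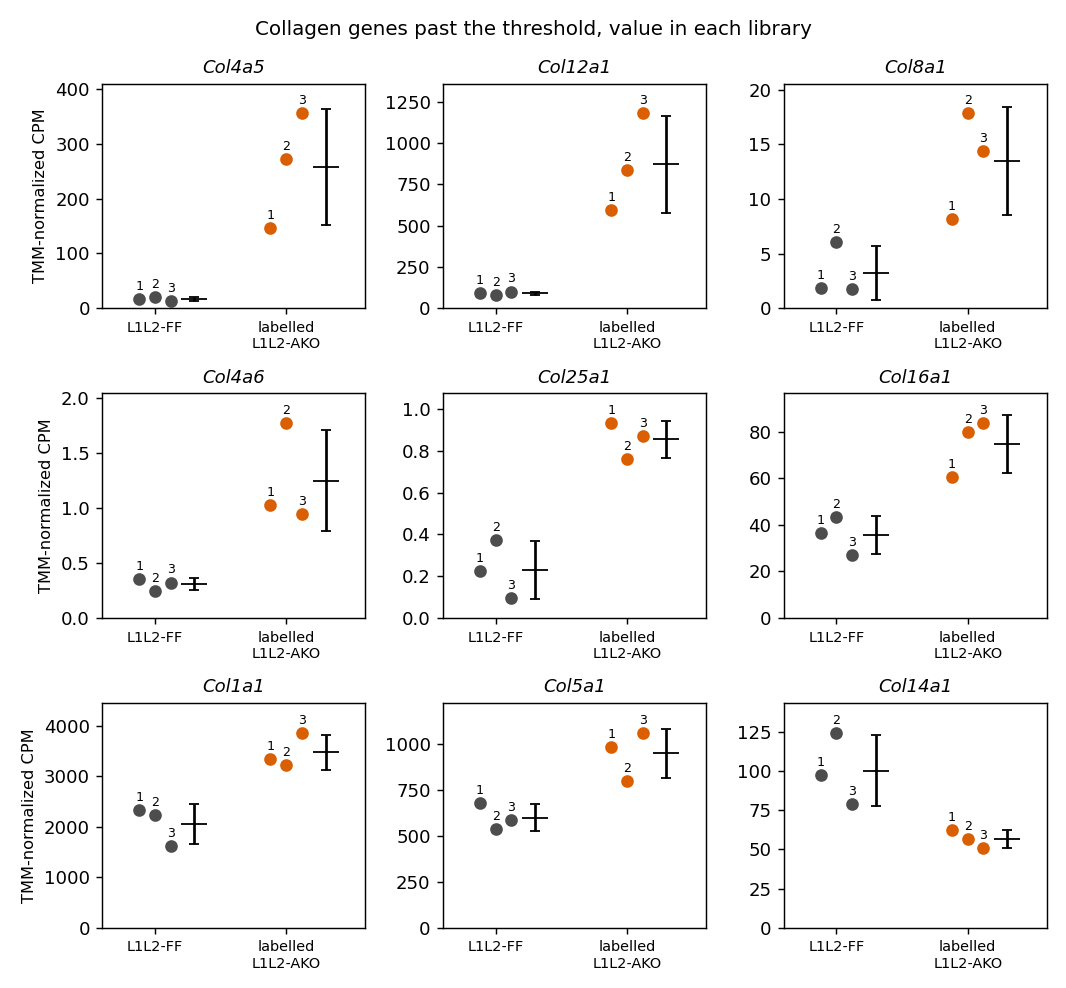
TMM-normalized CPM of the 9 collagen genes past the threshold in each library (points, numbered by replicate), with the mean and SD of 3 libraries beside them. In every panel the genotypes do not overlap, and replicate 1 is the lowest library labelled L1L2-AKO for *Col4a5* (146 CPM), *Col12a1* (596 CPM), *Col8a1* (8.15 CPM) and *Col16a1* (60.7 CPM).

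Fibrillar collagens took the largest part of the collagen counts, and 20% of them were called, near the 16.5% of all genes tested. Of the 10 members 2 rose, *Col1a1* and *Col5a1*, none fell and 8 did not pass, with a median log2 fold change of 0.42. *Col1a1*, the main chain of type I collagen, was at 2326, 2243 and 1612 CPM in L1L2-FF and at 3335, 3220 and 3868 CPM in libraries labelled L1L2-AKO. Without overlap, *Col1a1* rose by 0.75 in log2 (SE 0.206, adjusted p = 0.0427). This call was close to the threshold and held in 1 of the 6 fits that left out a library, that without L1L2-FF replicate 2 (adjusted p = 0.0424). The adjusted p was 0.0948 without L1L2-FF replicate 1, 0.0876 without L1L2-FF replicate 3, and 0.0749, 0.0951 and 0.119 without L1L2-AKO replicates 1, 2 and 3.

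*Col1a2*, the partner chain in type I collagen, was at 1875, 2133 and 1338 CPM in L1L2-FF and at 1630, 1461 and 1425 CPM in libraries labelled L1L2-AKO. Those values overlapped, and the log2 fold change was -0.24 (SE 0.205, adjusted p = 0.480). *Col3a1*, the chain of type III collagen that mixes with type I in pliable tissue, was at 4846, 5882 and 3588 CPM in L1L2-FF and at 4186, 4590 and 4891 CPM in libraries labelled L1L2-AKO. It had the highest level per kilobase of all members in L1L2-FF, 858 CPM per kb, and its log2 fold change was -0.07 (SE 0.232, adjusted p = 0.883).

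*Col5a1*, a type V chain that starts fibril assembly and sets fibril width, was at 678, 535 and 585 CPM in L1L2-FF and at 985, 798 and 1061 CPM in libraries labelled L1L2-AKO. It rose by 0.66 on the log2 scale without overlap (SE 0.169, adjusted p = 0.0336). Leaving out L1L2-AKO replicate 2 kept that call (adjusted p = 0.0480), and the 5 fits without another library gave 0.0805 and 0.109 for L1L2-AKO replicates 1 and 3 and 0.0699, 0.0611 and 0.0731 for L1L2-FF replicates 1, 2 and 3. Exons of *Col5a1* overlap those of 2810430I11Rik and Gm13372, and the strand setting of the counting is not given in the sources used here. *Col5a2*, which pairs with *Col5a1*, was at 493, 575 and 432 CPM in L1L2-FF and at 613, 832 and 1051 CPM in libraries labelled L1L2-AKO. The groups did not overlap, and its log2 fold change of 0.74 just missed the threshold (SE 0.218, adjusted p = 0.0551), which it passed when L1L2-AKO replicate 1 (0.0226) or L1L2-FF replicate 2 (0.0451) was left out.

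The other 5 fibrillar members did not pass. *Col5a3*, the type V chain that is prominent in fat, had a mean of 1306 ± 138 CPM (SD over 3 libraries) in L1L2-FF and 1750 ± 413 CPM (SD over 3) in libraries labelled L1L2-AKO, with overlap and a log2 fold change of 0.42. *Col24a1*, under 1 CPM, had 0.61 without overlap. The chains first described in cartilage, *Col11a1*, *Col11a2* and *Col27a1*, had log2 fold changes of -0.56, 0.41 and -0.28.

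Ratios of paired chains within a library do not depend on the scaling between libraries, and 7 such ratios were compared with an exact permutation test, two-sided. With 3 against 3 libraries that test cannot give a p under 0.1, so no ratio could pass 0.05. The ratio of *Col1a1* to *Col1a2* counts per kb was 1.12, 0.949 and 1.09 in L1L2-FF and 1.85, 1.99 and 2.45 in libraries labelled L1L2-AKO. The ratios did not overlap, and the log2 ratio was higher by 0.99 (exact permutation p = 0.1, adjusted over the 7 ratios 0.35). Of these chains *Col1a1* was called higher on its own and *Col1a2* was not called.

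The ratio of *Col4a1* to *Col4a2* was 1.95, 2.11 and 1.89 in L1L2-FF and 1.97, 2.01 and 2.03 in libraries labelled L1L2-AKO, a log2 difference of 0.02 (exact permutation p = 0.8). The SD of that log2 ratio was 0.0831 in L1L2-FF and 0.0237 in libraries labelled L1L2-AKO (n = 3 each). The log2 ratio of *Col3a1* to *Col1a2* differed by 0.18 (exact permutation p = 0.4), that of *Col5a1* to *Col5a2* by -0.05 (p = 1 in the same exact test), that of *Col6a1* to *Col6a2* by 0.03 (exact p = 0.9) and that of *Col6a3* to *Col6a1* by -0.41 (exact p = 0.3), each with overlap.

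**Figure D3:**
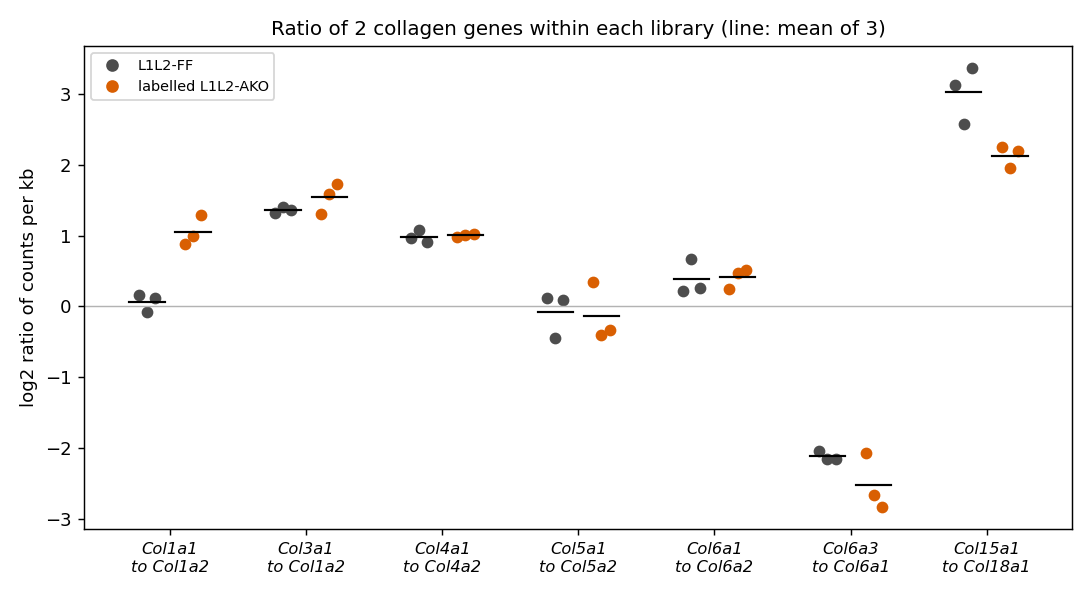
Log2 ratio of counts per kb of 2 collagen genes in each library, for 7 pairs, with the mean of 3 libraries as a line. The genotypes do not overlap for *Col1a1* to *Col1a2*, higher by 0.99 in libraries labelled L1L2-AKO, and for *Col15a1* to *Col18a1*, lower by 0.89, while *Col4a1* to *Col4a2* lies near 1 in every library.

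Beaded-filament collagens gave no call, where 16.5% of all genes tested were called. The 5 type VI members had a median log2 fold change of 0.20, and the values of the genotypes overlapped for each of them. *Col6a1* was at 1923, 1498 and 1856 CPM in L1L2-FF and at 2141, 1772 and 2419 CPM in libraries labelled L1L2-AKO (log2 fold change 0.26, SE 0.192, adjusted p = 0.409). *Col6a2* was at 1867, 1072 and 1761 CPM in L1L2-FF and at 2039, 1446 and 1917 CPM in libraries labelled L1L2-AKO (0.20, SE 0.2496, adjusted p = 0.647). L1L2-FF replicate 2 was the lowest of the 6 libraries for both chains. *Col6a3*, whose product is the source of the fragment endotrophin, was at 1147, 834 and 1024 CPM in L1L2-FF and at 1256, 687 and 834 CPM in libraries labelled L1L2-AKO (-0.11, SE 0.244, adjusted p = 0.803). *Col6a6*, which had 15.7 ± 5.54 CPM (SD over 3 libraries) in L1L2-FF and 7.05 ± 3.91 CPM (SD over 3) in libraries labelled L1L2-AKO, had the lowest value of all members, -1.16, and an adjusted p of 0.0947, or 0.0180 without L1L2-AKO replicate 1. *Col6a5* had 0.35. *Col6a5* and *Col6a6* are near copies in places and share 3.42% and 3.51% of their 50-base stretches.

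Among the 4 transmembrane members, all at low levels, 1 rose, where 9.28% of all genes tested did. *Col25a1*, known as a muscle and neuronal membrane collagen, had 7, 12 and 3 counts in L1L2-FF and 31, 24 and 25 counts in libraries labelled L1L2-AKO, or 0.223, 0.371 and 0.0967 CPM against 0.935, 0.761 and 0.873 CPM. Though these counts did not overlap, they were small. *Col25a1* rose by 1.87 in log2 (SE 0.486, adjusted p = 0.0355), a call that held without L1L2-FF replicate 2 (0.0207) and not without L1L2-FF replicate 1 or 3 (0.122 and 0.0709) or L1L2-AKO replicate 1, 2 or 3 (0.0893, 0.0971 and 0.107). *Col23a1* was at 5.11, 7.11 and 3.71 CPM in L1L2-FF and at 3.05, 3.05 and 3.56 CPM in libraries labelled L1L2-AKO. Each of the latter was below every L1L2-FF library, but its log2 fold change of -0.72 did not pass (SE 0.268, adjusted p = 0.108, or 0.0431 without L1L2-FF replicate 3). *Col17a1*, the hemidesmosome collagen of epithelia, was at 1.40, 0.959 and 0.516 CPM in L1L2-FF and at 0.995, 1.05 and 0.524 CPM in libraries labelled L1L2-AKO (-0.16, SE 0.458, adjusted p = 0.854). *Col13a1*, under 1 CPM, had 0.45 with overlap.

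None of the 5 members outside those types passed, where 16.5% of all genes tested did. Their median log2 fold change was -0.45. *Col15a1*, which encodes a proteoglycan collagen that joins basement membranes to fibrils and is abundant in fat, was at 1814, 1037 and 1945 CPM in L1L2-FF and at 1313, 684 and 930 CPM in libraries labelled L1L2-AKO. L1L2-FF replicate 2 lay within the range of the libraries labelled L1L2-AKO, and the log2 fold change was -0.71 (SE 0.308, adjusted p = 0.160, or 0.0448 without L1L2-FF replicate 2). *Col18a1*, its close relative and the source of endostatin, was at 225, 189 and 204 CPM in L1L2-FF and at 300, 191 and 220 CPM in libraries labelled L1L2-AKO (0.20, SE 0.179, adjusted p = 0.4996). Within libraries the ratio of *Col15a1* to *Col18a1* counts per kb was 8.74, 5.95 and 10.3 in L1L2-FF and 4.74, 3.87 and 4.57 in libraries labelled L1L2-AKO. That ratio did not overlap and was lower by 0.89 on the log2 scale, at the smallest p the test allows (log2 difference -0.89, exact permutation p = 0.1, adjusted 0.35).

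*Col28a1*, a collagen known from peripheral nerve, ranged from 15.6 to 37.2 CPM in L1L2-FF and from 23.7 to 102 CPM in libraries labelled L1L2-AKO, where replicate 1 was low and replicates 2 and 3 were high. Its log2 fold change was 1.58 (SE 0.528, adjusted p = 0.0795), and the adjusted p passed the threshold when L1L2-AKO replicate 1 (0.00859) or L1L2-FF replicate 2 (0.0427) was left out. Of the list of 12 Schwann cell and nerve markers 5 fell, 1 (*Pmp22*) rose and 6 did not pass. Of all genes tested 9.28% were higher and 7.18% lower. The median log2 fold change of the list was -1.50. Its summed level was 863 to 1789 CPM in L1L2-FF and 772 to 1425 CPM in libraries labelled L1L2-AKO. *Pmp22*, with means of 446 CPM in L1L2-FF and 902 CPM in libraries labelled L1L2-AKO, held most of the sum in the latter. *Col26a1* and *Col7a1*, at 1.37 and 1.81 CPM in L1L2-FF, had log2 fold changes of -1.12 and -0.45.

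Most calls lay outside the most abundant members, and so did most of the 37 members. The 10 members with at least 1000 CPM in L1L2-FF held 93.3% of the collagen CPM of L1L2-FF and 88.3% of that of the libraries labelled L1L2-AKO. Their log2 fold changes lay between -0.71 and 0.75, with 1 call, where 16.5% of all genes tested were called. Of the 9 called members 4 had an L1L2-FF mean under 20 CPM, a level below which many uncalled members also lay. Per kilobase of transcript the order in L1L2-FF was *Col3a1* (858), *Col4a1* (721), *Col6a1* (429), *Col4a2* (364) and *Col1a1* (348 CPM per kb), and in libraries labelled L1L2-AKO it was *Col4a1* (892), *Col3a1* (819), *Col1a1* (586), *Col6a1* (515) and *Col4a2* (445 CPM per kb). *Col1a1* was the member among them that passed the test between genotypes.

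**Figure D4:**
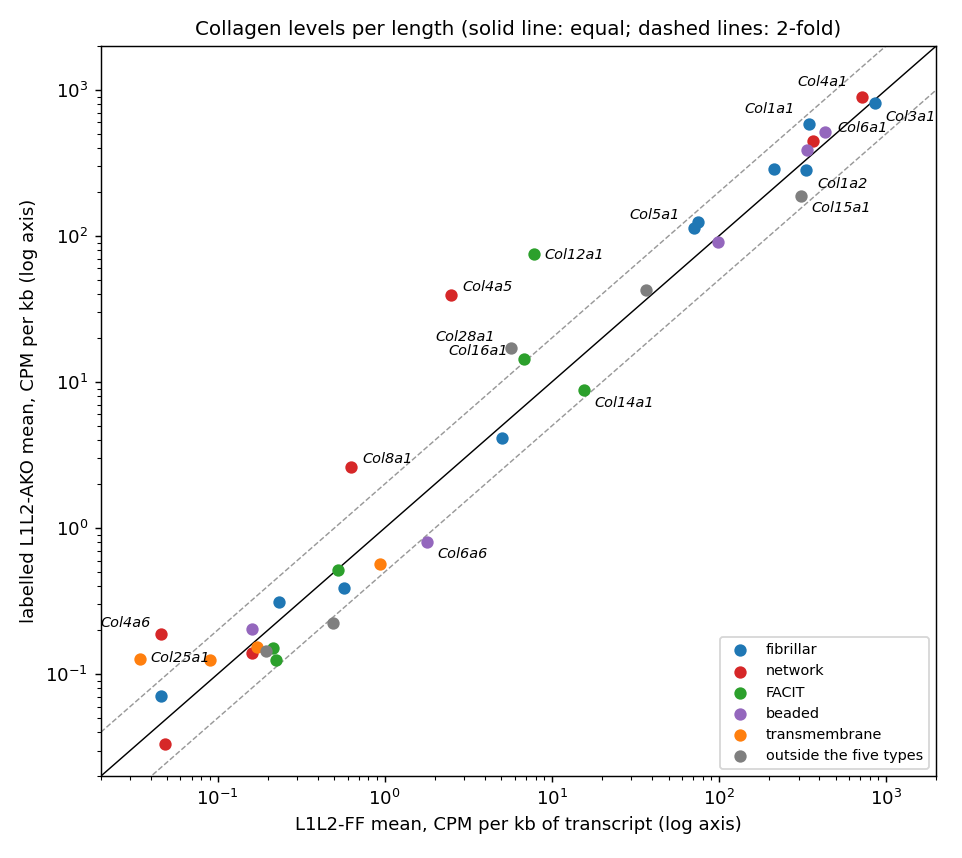
Mean CPM per kilobase of transcript of each collagen gene in L1L2-FF (x, log axis) and in libraries labelled L1L2-AKO (y, log axis), with a line of equality and dashed lines of a 2-fold difference. The abundant members at the upper right lie within the dashed lines, and *Col12a1* (7.82 against 75.7) and *Col4a5* (2.51 against 39.6) lie far above them.

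Collagen members took 2.65%, 2.60% and 2.19% of all counts in L1L2-FF and 3.04%, 2.75% and 2.92% in libraries labelled L1L2-AKO, a mean of 2.48% ± 0.254 (SD, n = 3) against 2.91% ± 0.145 (SD, n = 3). The 3 libraries of each genotype did not overlap, with a 1.17-fold ratio of means, and no test was made of this sum over chosen members. The share of FACIT genes was 0.0227%, 0.0267% and 0.0202% against 0.0748%, 0.0999% and 0.122%. That 4.26-fold ratio of means was the largest of the types, and the rise lay in *Col12a1*. As a part of the collagen counts, FACIT genes together rose by 2.49 percentage points and *Col12a1* alone by 2.59. Within the collagen counts themselves, the part of *Col12a1* was 0.368% against 2.96%, that of *Col4a5* 0.0666% against 0.881%, that of *Col1a1* 8.33% against 11.9% and that of *Col3a1* 19.3% against 15.6%. The fibrillar part was 44.9% against 44.8%, and the part of genes outside the types, mostly *Col15a1*, was 7.49% against 4.38%.

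**Figure D5:**
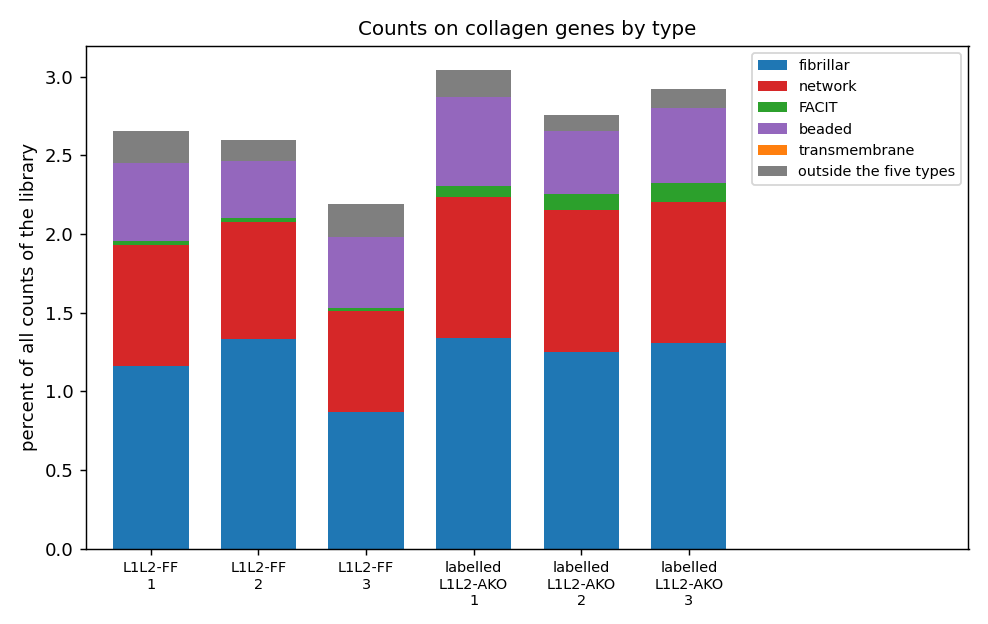
Percent of all counts of each library that fell on collagen members, stacked by type; the transmembrane share is too small to see. The stacks reach 2.65, 2.60 and 2.19 in L1L2-FF and 3.04, 2.75 and 2.92 in libraries labelled L1L2-AKO. The FACIT band widens from a mean of 0.0232 to 0.0989, a rise that lies in *Col12a1*.

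Genes that make collagen were examined beside the members. For this list and those that follow, 9.28% of all genes tested were higher and 7.18% lower, and no list was tested against these shares. Of 15 genes for hydroxylation and glycosylation of procollagen 7 rose and none fell, with a median log2 fold change of 0.49. Prolyl hydroxylation stabilises the collagen helix, and the prolyl 4-hydroxylase subunit *P4ha2* was at 23.9, 18.1 and 22.4 CPM in L1L2-FF and at 66.7, 114 and 135 CPM in libraries labelled L1L2-AKO (log2 fold change 2.29, SE 0.256, adjusted p = 0.00128). *P4ha1* rose by 1.48 and the prolyl 3-hydroxylases *P3h2* and *P3h1* by 2.91 and 0.98. The lysyl hydroxylase *Plod2*, which shapes crosslinks, rose by 1.35, and *P3h4* and *Colgalt1* by 0.67 and 0.37. *P4hb* and *Plod3*, the most abundant of the list over all 6 libraries, had 0.56 and 0.49 and did not pass.

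Of 7 genes for folding and export 2 rose, *Fkbp10* by 0.62 and *Fkbp14* by 0.60, none fell, and the collagen chaperone *Serpinh1* had 0.64 with an adjusted p of 0.0653. Of 8 tested genes for propeptide cleavage, the step that lets procollagen assemble into fibrils, *Bmp1* rose by 0.61 and *Pcolce*, which enhances it, by 1.58, while *Tll1* fell (1.54 ± 0.677 CPM against 4.78 ± 1.83 CPM in L1L2-FF, SD, n = 3 each). *Pcolce* was at 177, 184 and 131 CPM in L1L2-FF and at 410, 463 and 596 CPM in libraries labelled L1L2-AKO, with no overlap. Of 13 tested collagen receptors 7 rose and none fell, with a median of 0.52. They were the discoidin receptors *Ddr1* (2.07) and *Ddr2* (1.58), the collagen uptake receptor *Mrc2* (2.35), the leukocyte receptor *Lair1* (2.24), the integrin chains *Itga1* (0.68) and *Itgb1* (0.52), and *Antxr1* (0.68).

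Of 15 tested basement membrane partners of type IV collagen 5 rose, none fell and 10 did not pass, with a median of 0.25. *Nid2*, a linker of laminin and type IV collagen, was at 382, 231 and 470 CPM in L1L2-FF and at 987, 1452 and 2133 CPM in libraries labelled L1L2-AKO (log2 fold change 2.08, SE 0.346, adjusted p = 0.00616). Its relative *Nid1* had means of 1695 and 1696 CPM and did not pass. Among the others, the laminin chains *Lama5*, *Lamc1* and *Lamb2* rose by 1.77, 0.81 and 0.71.

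Markers of some of the cells a floated fraction can hold differed between genotypes. Beside their counts stand the 9.28% of all genes tested that were higher and the 7.18% that were lower. Of 12 adipocyte markers 5 fell, *Adipoq*, *Pparg*, *Retn*, *Slc2a4* and *Acsl1*, and none rose, and their summed level was 18860 to 22970 CPM in L1L2-FF and 12920 to 15740 CPM in libraries labelled L1L2-AKO. Of 12 macrophage markers 11 rose, with a summed level of 272 to 532 CPM against 980 to 1091 CPM. Of 14 fibroblast and progenitor markers, the cell types best known for fibrillar collagen, 1 rose, *Anxa3*, and 3 fell, *Pi16*, *Cd55* and *Clec3b*. The summed level of the 14 was 1187 to 2810 CPM against 1149 to 1541 CPM. The largest part of that sum was *Gsn*, which did not pass (means of 1108 CPM against 715 CPM). Of 10 mural cell markers 1 rose, *Notch3*, and 3 fell (summed level 1554 to 1979 CPM against 1531 to 1683 CPM), and of 12 endothelial markers none passed (2214 to 2936 CPM against 1328 to 2881 CPM).

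The other marker lists were at low levels. Of 6 tested chondrocyte and bone markers *Alpl* rose and *Sp7* fell, and *Ibsp* was at 0 in every library. The summed level was 11.1 to 15.2 CPM against 31.2 to 75.1 CPM. Most of that sum was *Alpl*, with means of 9.11 CPM against 49.96 CPM. Of 3 tested keratinocyte and epithelial markers *Trp63* fell (14.2 to 18.0 CPM against 10.2 to 14.9 CPM), and of 5 tested skeletal muscle markers none passed (10.8 to 18.2 CPM against 2.76 to 8.97 CPM). Every defining marker of the adipocyte, macrophage, fibroblast, mural, endothelial and Schwann cell lists was counted in at least 1 library. The part of these cell types in the collagen values was not tested.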

How the data were processed

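RNA of adipocytes floated from inguinal scWAT of male P7 mice was sequenced by the authors as paired ends on a BGISEQ-500 in 3 L1L2-FF and 3 L1L2-AKO libraries, each from 4 pooled mice, and grouped by the submitters' labels. Per the submitters' processing notes and the paper's methods, reads were aligned to mm10 with HISAT2 2.1.0 and processed with StringTie 1.3.5. The authors deposited whole-number counts per gene symbol without normalization, and the annotation, the counting program and its strand setting are not given in the sources used here. Nothing says whether the pools came from separate litters, so p-values measure the spread between these libraries.

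The collagen members, gene lists and tests were chosen with earlier results of these data known. Genes were filtered with filterByExpr (minimum count 10, minimum total 15, 15674 kept), scaled by TMM and tested with edgeR 4.0.16 (quasi-likelihood, two-sided, R 4.3.3), with Benjamini-Hochberg adjustment over all genes kept and a threshold of 0.05. Adjusted p-values are from this test unless another is named. Values per kilobase use the longest protein-coding GENCODE M21 transcript. Ratios had 0.5 counts added. Full values are given for each called member, the 2 of each type highest per kilobase and each ratio's genes; other members have a fold, a level or a range. Alternatives used limma 3.58.1 and DESeq2 1.42.0, and plots matplotlib 3.10.9. The test was checked on simulated counts. Of the listed genes past the threshold, 1 is not reported here.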

Additional observations from a re-analysis of the deposited data

How the results depend on the processing

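The 8 higher and 1 lower members stayed at 8 and 1 with DESeq2's size factors, upper-quartile scaling, library size alone, the collagen genes left out of the library sizes, and limma-voom. DESeq2's Wald test gave 9 and 2, adding *Col5a2* and *Col6a6*, no filter gave 10 and 1, adding *Col5a2* and *Col28a1*, and 10 counts in every library 6 and 1. A minimum fold of 1.5 within the test left 3 and 0, *Col4a5*, *Col12a1* and *Col4a6*. Of 2 alternatives chosen after seeing the data, 10 counts in 3 libraries of each genotype gave 6 and 1, and a fold of at least 2 gave 6 and 0. Fits that left out 1 library had 3 to 9 higher and 0 to 2 lower members, with *Col4a5*, *Col12a1* and *Col16a1* called in all 6 fits and 5 uncalled members (*Col5a2*, *Col6a6*, *Col15a1*, *Col23a1* and *Col28a1*) called in at least 1. Over all genes the same fits called 777 to 1552 higher and 467 to 1293 lower.

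Labels share replicate numbers but do not say that these mark a litter or day, so the numbers were not taken as pairs. Same-numbered libraries deviated together with correlations of 0.188, 0.255 and -0.0544, which cannot settle whether they were paired. With the replicate block 6 members were higher and 2 lower: *Col1a1* (adjusted p = 0.0697) and *Col25a1* (0.0570) were lost and *Col6a6* (0.0408) was gained. In this balanced design the block cannot change the genotype difference in log2 ratio. It was 0.99 for *Col1a1* to *Col1a2* and -0.89 for *Col15a1* to *Col18a1*. An exact sign-flip test over same-numbered libraries cannot give a p under 0.25, and it gave 0.25 for each.

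Leaving out a library turned the sign of 11 uncalled members. The ranges of the log2 fold change were -0.46 to 0.22 for *Col17a1*, -0.00096 to 0.34 for *Col18a1*, -0.24 to 0.11 for *Col3a1*, -0.011 to 0.34 for *Col6a2*, -0.40 to 0.064 for *Col6a3*, -0.90 to 0.84 for *Col6a5*, -0.92 to 0.21 for *Col9a2*, -0.68 to 0.46 for *Col8a2*, -1.47 to 0.065 for *Col4a3*, -0.29 to 0.21 for *Col20a1* and -0.050 to 0.66 for *Col11a2*. Those of the genotype difference in log2 ratio were -0.019 to 0.062 for *Col4a1* to *Col4a2* and -0.29 to 0.084 for *Col5a1* to *Col5a2*. For *Col6a1* to *Col6a2* the range of that difference was -0.046 to 0.17, and for *Col1a1* to *Col1a2* it was 0.87 to 1.07. Of 334 refitted values of the 21 members described in full, 290 kept direction and call, 32 lost the call, 6 gained one and 6 turned sign. The difference in collagen share, 0.426 percentage points, was 0.280 to 0.513 with a library left out, 0.209 per kilobase and 0.353 without *Col1a1*, *Col1a2* and *Col3a1*. The cause of these differences was not tested. With 3 libraries a genotype and under 60 counts a library, calls of *Col4a6* and *Col25a1* rest on little depth.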
